A study of Homo sapiens with 7 samples.

Results

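Human embryonic stem cells kept for 48 h in the inhibitor XMD892 were compared with cells kept in it for 24 h. The comparison used the 2 libraries labelled 48 h, the 2 labelled 24 h and every gene whose normalised read count averaged 10 or more over these 4 libraries, which left 16198 of the 19775 listed genes. The filter's edge ran between AC068580.1, inside with a mean of 10.0006, and CITED1, outside with 9.99. The 7 samples of the study were wild-type cells of the established human embryonic stem cell line H1 in E8, a defined medium whose ingredients include insulin, FGF2 and TGFβ, so treated and untreated cells alike received these factors. XMD892 was given at 1 µM for 12 h (1 sample), 24 h (2 samples) or 48 h (2 samples), and 2 untreated samples were kept for 48 h in E8. The E8 and 12 h libraries are given below as reference levels. They stayed out of the main test and entered only an alternative fit of all 7 libraries. No untreated sample from 24 h was analysed here, so time in the inhibitor and time in culture cannot be told apart. The samples come from 1 cell line, and the labels do not say that samples of a group were separate cultures. The p-values therefore measure the spread between these samples, which may be technical. That spread was estimated mostly from other genes of similar level (2 residual and 31.8 prior degrees of freedom), less from a gene's own libraries.

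XMD892 is a small molecule that the study's title ties to the kinase ERK5, the product of MAPK7. In the ERK5 cascade, growth factors act through MAP3K2 or MAP3K3 on MEK5, the product of MAP2K5, and MEK5 switches on ERK5, whose known targets include the MEF2 transcription factors and the KLF2 and KLF4 genes. Human embryonic stem cells in E8 stay pluripotent through FGF2, which acts through the related kinases ERK1 and ERK2, and through TGFβ and NODAL, which act through SMAD2 and SMAD3. The series' title speaks of an autocrine balance, that is, of signals the cells make for themselves.

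The listed genes carried 18759059 to 21551210 reads in the 4 libraries compared. The labelled cell type was checked against its defining markers: POU5F1, SOX2, NANOG, LIN28A, DNMT3B and TDGF1 all passed the filter, and POU5F1 was listed at 58983 and 55747 at 24 h against 57249 and 67878 at 48 h. Of 10 fibroblast and feeder markers 5 had a row, and COL3A1, DCN, LUM, POSTN and FAP are not analysed here. The 2 libraries at 48 h differed along GC content (Spearman's rho of their log2 difference with transcript GC 0.22 over 15819 genes), whereas the 24 h libraries did not (-0.003). The 48 h minus 24 h difference had a rho of -0.22 with GC content. Values given below with the GC trend removed come from a fit in which a smooth curve of each library's log2 values on GC content was subtracted first.

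Between 24 h and 48 h, 1021 genes changed, 6.3% of those tested; 361 were higher at 48 h (2.23%) and 660 were lower (4.07%). The largest rises included DDIT4, TXNIP, STC1 and SLC16A3, genes tied to sugar use, low oxygen and growth restraint. The largest falls included TAGLN, VGF, SPP1, CAV1 and metallothionein genes, which encode cytoskeletal, secreted, membrane and metal-binding proteins. Calls were made with limma on log2(normalised read count + 1) where the p-value, adjusted by the Benjamini-Hochberg method across the 16198 genes, was under 0.05; that scale understates the change of low genes. Among the called genes, 54 higher and 97 lower ones moved by more than 2-fold, and the median log2 fold change was 0.57 for the higher and -0.55 for the lower. Over all tested genes the median was -0.003, with 5% below -0.61 and 5% above 0.57. Of the called genes, 1016 had 48 h libraries that did not overlap the 24 h libraries, as did 49.0% of all tested genes.

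The number of calls depended on the estimate of the spread and on single libraries. A fit of all 7 libraries called 191 genes (54 higher, 137 lower), all of them among the 1021. In it the E8 pair added to the spread, whereas the single 12 h library could not. Leaving out the first 24 h library left 269 calls, and leaving out the second 48 h library gave 1468. Of 133 called genes that the naming rule selects, 69 remained called in the fit of all 7 libraries and 74 without the first 24 h library. None of the 133 changed sign in any alternative that gave it an adjusted p. DESeq2 on 3 libraries gave one for 116 of them and the filter at a mean of 50 for 129.

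**Figure D1:**
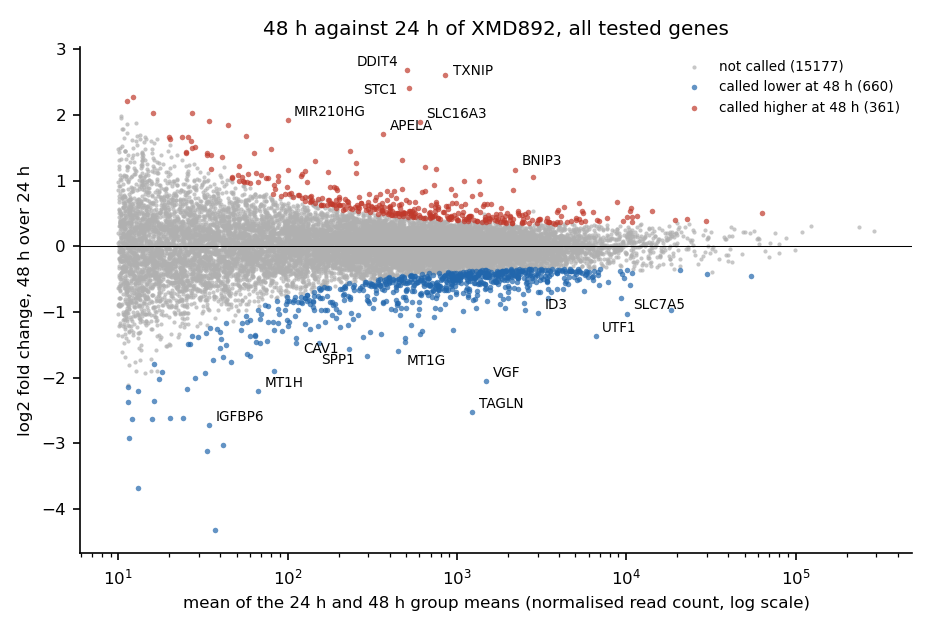
Log2 fold change of 48 h over 24 h (vertical axis) against the mean of the 2 group means (horizontal log axis, normalised read count) for the 16198 tested genes; red points are the 361 genes called higher at 48 h, blue points the 660 called lower and grey points the rest. DDIT4 and TXNIP lie at the top, TAGLN and VGF stand apart at the bottom among well-measured genes, and larger changes at the left edge belong to genes with few reads.

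Of the 52 gene lists described here, the hypoxia list had the largest share of members that rose. It holds genes known to be switched on by the transcription factor HIF when oxygen is low. Under HIF, cells take up more glucose, turn pyruvate to lactate and remove mitochondria. Of 30 tested members 13 rose (43.3%, beside 2.23% of all tested genes) and 1 fell; the median log2 fold change was 0.40. The members that rose fall into 4 kinds. DDIT4, an inhibitor of the growth kinase mTORC1, MXI1, an antagonist of MYC, and KDM3A, a histone demethylase, are regulators. BNIP3 and BNIP3L are receptors for the removal of mitochondria. HK2, PFKFB3, PFKFB4, LDHA and PDK1 act in or on glycolysis. PPFIA4 is a liprin scaffold protein, P4HA1 modifies collagen and INSIG2 restrains sterol synthesis.

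DDIT4 was listed at 151 and 121 at 24 h against 966 and 789 at 48 h, a 6.46-fold higher mean. Its log2 fold change was 2.69 ± 0.16 (adjusted p = 3.0e-14), where ± gives the limma standard error here and below. In the reference libraries DDIT4 was at 383 and 439 in E8 and 96.6 at 12 h, so both 48 h libraries lay above every other library. BNIP3 was listed at 1420.4 and 1302 at 24 h against 3294 and 2836 at 48 h, and the log2 fold change was 1.17 ± 0.11 (adjusted p = 1.0e-08). Its level was 2527 and 2494 in E8 and 1157 at 12 h, and the 24 h and 12 h libraries were the low ones. PPFIA4 stood at 83.3 and 84.2 at 24 h against 213 and 202 at 48 h, and the log2 fold change was 1.30 ± 0.21 (adjusted p = 8.0e-05). It was at 192 and 174 in E8 and 57.97 at 12 h. The groups did not overlap for any of these genes, nor for 49.0% of all tested genes. KDM3A was at 606 and 702 at 24 h against 1228 and 1157 at 48 h, a log2 fold change of 0.87 (adjusted p = 1.6e-05). BNIP3L was at 997 and 836 at 24 h against 1537 and 1554 at 48 h, a log2 fold change of 0.76 (adjusted p = 7.7e-05). The other 8 members that rose had log2 fold changes between 0.42 (HK2) and 0.79 (MXI1).

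Several classic members of the list did not pass the test. VEGFA, the angiogenic growth factor, stood at 723 and 727 at 24 h against 858 and 853 at 48 h (log2 fold change 0.24, adjusted p = 0.28). SLC2A1, the main glucose importer, stood at 6584 and 6185 at 24 h against 8656 and 7085 at 48 h (0.30, adjusted p = 0.11). EGLN3, an oxygen sensor that HIF itself switches on, stood at 328 and 268 at 24 h against 236 and 266 at 48 h (-0.24, adjusted p = 0.45). ADM, a secreted vessel-widening peptide, fell, at 952 and 624 at 24 h against 380.1 and 418 at 48 h, and the log2 fold change was -0.95 ± 0.15 (adjusted p = 1.1e-04). The list was therefore not uniform: its members ranged from -0.95 to 2.69. In the fit of all 7 libraries 7 members rose and 1 fell, and without the first 24 h library 10 rose and ADM was no longer called (adjusted p = 0.053). CA9 had a mean under 10 and was not tested.

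**Figure D2:**
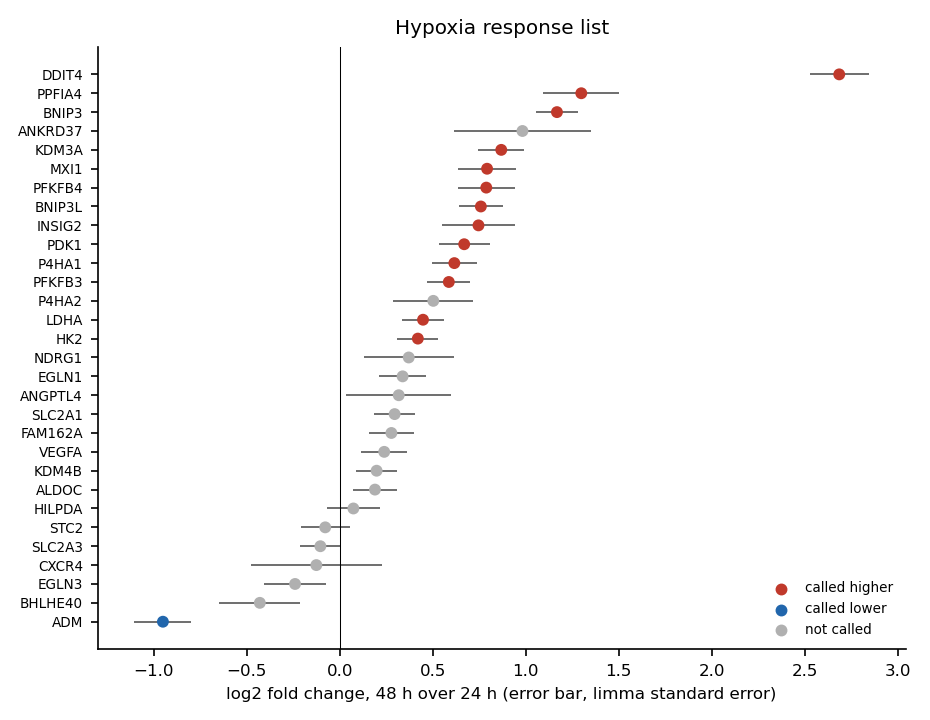
Log2 fold change of 48 h over 24 h for the 30 tested genes of the hypoxia list, sorted by value; error bars are limma standard errors, red points were called higher, blue points called lower and grey points not called. DDIT4 stands apart at 2.69, 12 other genes were called between 0.42 and 1.30, and ADM is the member called lower, at -0.95.

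HIF binds DNA at the core ACGTG. Promoter sequence upstream of the start was read for the members whose changes were largest and for MIR210HG, the host transcript of the hypoxia-associated microRNA miR-210, described below. The stretches run 5′ to 3′ on the gene's strand over 180 to 61 bases before the RefSeq start (GRCh38.p14), and capitals mark ACGTG or its reverse complement CACGT, which together read CACGTG where they overlap.
DDIT4 (chr10:72273744-72273863, plus strand): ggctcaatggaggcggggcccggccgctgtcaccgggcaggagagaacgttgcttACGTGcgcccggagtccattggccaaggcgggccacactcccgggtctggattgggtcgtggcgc
BNIP3 (chr10:131981984-131982103, minus strand): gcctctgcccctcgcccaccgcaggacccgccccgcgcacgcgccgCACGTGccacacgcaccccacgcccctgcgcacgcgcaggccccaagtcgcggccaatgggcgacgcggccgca
PPFIA4 (chr1:203026311-203026430, plus strand): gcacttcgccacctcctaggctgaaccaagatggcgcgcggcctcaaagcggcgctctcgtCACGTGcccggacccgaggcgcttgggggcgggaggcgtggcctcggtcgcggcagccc
MIR210HG (chr11:568518-568637, minus strand): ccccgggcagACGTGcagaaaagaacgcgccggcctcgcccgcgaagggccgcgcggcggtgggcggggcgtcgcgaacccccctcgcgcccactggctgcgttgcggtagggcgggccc
Searched on both strands over 250 bases before the start, the core stood in 18.5% of all 35116 RefSeq windows and in 21.98% of the windows of tested genes. It stood in 19 of the 35 windows (54.3%) that matched 25 tested members of the list. The 12 matched members that rose had it in 12 of 20 windows and the 12 that were not called in 7 of 14. BNIP3L had no entry in the table. A match is a description of the letters, not a site.

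Glycolysis turns glucose to pyruvate and lactate, and its genes rose in part. Of 21 tested glycolysis genes 6 rose (28.6%, beside 2.23% of all tested genes) and 15 did not pass the test. The median was 0.17. HK2, LDHA, SLC2A1, SLC2A3 and ALDOC stand in the hypoxia list too. SLC16A3, the exporter that carries lactate out of the cell, was listed at 249 and 260 at 24 h against 1016 and 881 at 48 h, a 3.73-fold higher mean, with a log2 fold change of 1.89 ± 0.14 (adjusted p = 9.1e-12). It stood at 382 and 639 in E8 and 221 at 12 h. CSNK1D overlaps it on the opposite strand, and since no strand setting is given in the sources used here, reads of the 2 genes may not be told apart. The enzymes that rose were ENO2 (0.64), PGK1 (0.58), LDHA (0.45), HK2 (0.42) and PKM (0.40). PGK1 was listed at 8310.1 and 8679.8 at 24 h against 14246 and 11242 at 48 h; the first 48 h library was the higher of the pair, and both lay above the 24 h libraries. GAPDH did not pass the test, at 57258 and 59602 at 24 h against 70151 and 56436 at 48 h, and the groups overlapped. The count was 2 in the fit of all 7 libraries, 3 without the first 24 h or the first 48 h library, 4 without the second 24 h library and 9 without the second 48 h library.

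TXNIP, an arrestin-like protein that lowers glucose uptake and binds thioredoxin, was among the strongest single changes. Its values were 260.3 and 219 at 24 h against 1522 and 1403 at 48 h, a 6.1-fold higher mean and a log2 fold change of 2.61 ± 0.14 (adjusted p = 7.2e-16). In the reference libraries it was at 212 and 253 in E8 and 222 at 12 h, so only the 48 h libraries were high. The gene lies at chr1:145992435-145996600 (GENCODE 29, GRCh38). ARRDC4, a close relative and like it a known target of the glucose-sensing MondoA and ChREBP factors, was at 203 and 189 at 24 h against 311 and 349 at 48 h (log2 fold change 0.75 ± 0.17 (adjusted p = 0.0043)); in the fit of all 7 libraries its adjusted p was 0.071. The other 6 tested genes of that list, including MLXIP and MLXIPL, which encode MondoA and ChREBP, were not called. TXNIP and ARRDC4 were 25% of the list, beside 2.23% of all tested genes called higher. Of 19 pentose phosphate and citric acid cycle genes, IDH2 rose (5.26%, beside 2.23% of all tested genes) and 18 did not pass the test. IDH2 was at 0.41 (adjusted p = 0.022), with an adjusted p of 0.25 in the fit of all 7 libraries. Without the first 24 h library its log2 fold change was 0.37.

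Metallothioneins are small cysteine-rich proteins that bind zinc and copper, and zinc switches their genes on through the factor MTF1. Some of them fell. Of 8 tested members of the metallothionein and zinc export list, 4 were lower at 48 h (50%, beside 4.07% of all tested genes), and the list's median was -0.66. MT1G was listed at 709 and 633 at 24 h against 274 and 179 at 48 h, a 2.96-fold lower mean, with a log2 fold change of -1.59 ± 0.17 (adjusted p = 3.9e-08). MT1H was at 133 and 88.9 at 24 h against 23.8 and 21.8 at 48 h (-2.21 ± 0.31, adjusted p = 1.0e-05). MT1E was at 454 and 420 at 24 h against 177 and 176 at 48 h (-1.30 ± 0.16, adjusted p = 1.2e-06) and MT2A at 1110.1 and 1082 at 24 h against 589 and 604 at 48 h (-0.88 ± 0.12, adjusted p = 1.1e-05). In each of the 4 genes both 48 h libraries lay below both 24 h libraries, and below both E8 libraries as well. The 24 h and 48 h groups did not overlap in 49.0% of all tested genes. At 12 h the same genes were listed at 1488 (MT1G), 283 (MT1H), 939 (MT1E) and 1209.8 (MT2A).

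Neighbouring members of the family differed. MT1F was at 549.8 and 554 at 24 h against 585 and 449 at 48 h (log2 fold change -0.11, adjusted p = 0.74). MT1X was at 263 and 356 at 24 h against 132 and 385 at 48 h (-0.44, adjusted p = 0.34), so its 2 libraries at 48 h lay on both sides of the 24 h libraries. MTF1 (-0.23) and the zinc exporter gene SLC30A1 (-0.07) were not called. Between 4 and 5 genes of the list were lower in every alternative run. The family's genes are near-identical copies on chromosome 16, so how reads were shared among them could affect single members.

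MTF1 binds metal response elements, whose core is TGCACNC or TGCGCNC. The 180 bases before the start are shown for MT1H and MT2A, which fell, and for MT1X, which was not called; capitals mark the core on either strand.
MT1H (chr16:56669634-56669813, plus strand): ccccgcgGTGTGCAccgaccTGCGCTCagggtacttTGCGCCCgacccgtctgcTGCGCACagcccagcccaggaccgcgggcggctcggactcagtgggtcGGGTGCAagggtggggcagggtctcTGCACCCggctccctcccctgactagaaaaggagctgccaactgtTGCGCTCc
MT2A (chr16:56608404-56608583, plus strand): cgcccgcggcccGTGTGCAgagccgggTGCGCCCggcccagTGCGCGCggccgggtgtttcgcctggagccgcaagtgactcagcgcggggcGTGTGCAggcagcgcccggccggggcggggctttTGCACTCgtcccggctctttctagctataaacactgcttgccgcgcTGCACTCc
MT1X (chr16:56682290-56682469, plus strand): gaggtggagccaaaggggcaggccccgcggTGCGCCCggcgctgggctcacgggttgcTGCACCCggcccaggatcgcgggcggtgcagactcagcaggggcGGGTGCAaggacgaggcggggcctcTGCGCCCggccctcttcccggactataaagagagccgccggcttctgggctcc
Over 250 bases MT1H held 8 matches, MT2A 7 and MT1X 4. At least 1 match stood in 24.8% of all RefSeq windows of this length and in 31.9% of the windows of tested genes. Windows with 3 or more were 1.58% and 2.16%. The 2 matched members of the list that fell had a match in 2 of 2 windows, and the 3 that were not called in 2 of 3. MT1G, MT1E and MT1F had no entry in the table.

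The cytoskeletal genes that fell are contractile and actin-binding genes known as targets of SRF and its actin-regulated partners. Of 20 tested SRF and YAP targets 7 fell (35%), 1 rose (5%) and 12 did not pass the test, with a median of -0.11. Over all tested genes 4.07% fell and 2.23% rose. TAGLN, which encodes the actin-binding protein transgelin, was listed at 2227 and 1988 at 24 h against 379 and 348 at 48 h, a 5.8-fold lower mean. Its log2 fold change was -2.53 ± 0.12 (adjusted p = 2.2e-16). The 12 h library was the highest and the 48 h libraries were the lowest, with 474 and 621 in E8 and 4847 at 12 h. PCSK7 overlaps TAGLN on the opposite strand. MYL9, a myosin light chain, was at 1431 and 1262 at 24 h against 541 and 566 at 48 h (-1.28 ± 0.12, adjusted p = 1.0e-08). CNN1, calponin, was at 271 and 186 at 24 h against 112 and 116 at 48 h (-0.97 ± 0.20, adjusted p = 0.0023), and TPM2, a tropomyosin, at 1782 and 1500.2 at 24 h against 944 and 1013 at 48 h (-0.74 ± 0.12, adjusted p = 1.0e-04). AXL (-0.66), TAGLN2 (-0.65) and TPM1 (-0.41) fell as well, and LATS2, a kinase that restrains YAP, rose (0.51). The YAP targets CYR61, at 454 and 383 at 24 h against 354 and 296 at 48 h, and CTGF, at 188 and 149 at 24 h against 138 and 138 at 48 h, were not called. The fit of all 7 libraries called 5 members lower; without the first 24 h library 4 were lower, and CNN1 had an adjusted p of 0.18.

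CAV1, the caveolar membrane protein, fell alongside them, at 361 and 326 at 24 h against 123 and 109 at 48 h (-1.56 ± 0.18, adjusted p = 3.6e-07). FLNC, an actin crosslinker of muscle, was at 559 and 894 at 24 h against 295 and 221 at 48 h (-1.47 ± 0.17, adjusted p = 4.9e-07), with 2017 at 12 h; both 48 h libraries lay below all others. DESeq2 on the 3 libraries usable as whole reads gave FLNC an adjusted p of 0.26. VIM, the mesenchymal intermediate filament, was at 1026 and 882 at 24 h against 546 and 549 at 48 h (-0.79 ± 0.13, adjusted p = 1.1e-04). KRT18, an epithelial keratin, was at 12607 and 10018 at 24 h against 8815 and 7363 at 48 h (-0.48 ± 0.12, adjusted p = 0.0097; 0.38 without the first 24 h library). These were the 2 of 16 tested adhesion and filament genes that fell (12.5%, beside 4.07% of all tested genes). CDH1 (0.09) and CDH2 (0.04), the epithelial and neural cadherins, were not called.

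Genes of secreted peptides moved both ways. Of 13 tested members of the neuropeptide and granule list, 5 fell (38.5%), 2 rose (15.4%) and 6 did not pass the test. Over all tested genes 4.07% fell and 2.23% rose. The list's median was -0.63. VGF, the precursor of several neuropeptides and named for its induction by nerve growth factor, was listed at 2554 and 2240.1 at 24 h against 485 and 686 at 48 h, a 4.09-fold lower mean and a log2 fold change of -2.05 ± 0.13 (adjusted p = 2.3e-13). Its reference levels were 331 and 366 in E8 and 4155 at 12 h. SPP1, osteopontin, was at 463 and 430.2 at 24 h against 159 and 123 at 48 h (-1.67 ± 0.17, adjusted p = 3.5e-08), with 313 and 270.2 in E8 and 1584 at 12 h. NTS, neurotensin, was at 182 and 202 at 24 h against 66.95 and 94.2 at 48 h (-1.26 ± 0.22, adjusted p = 3.0e-04), far below its 1235 and 979 in E8 and 497 at 12 h. GAL, galanin, which is abundant in human pluripotent cells, was at 1028 and 1064 at 24 h against 527 and 552 at 48 h (-0.95 ± 0.13, adjusted p = 3.9e-06). Each of these groups was separate, with the 48 h libraries low. The groups were separate in 49.0% of all tested genes.

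APELA, the peptide ligand of the apelin receptor that human embryonic stem cells secrete, went the other way. It was listed at 146 and 202 at 24 h against 545 and 579 at 48 h, a 3.23-fold higher mean, with a log2 fold change of 1.71 ± 0.17 (adjusted p = 1.0e-08). It stood at 521 and 335 in E8 and 252 at 12 h, so the 24 h libraries were the lowest and the 48 h libraries the highest. SCG5, a chaperone of the peptide-processing enzyme PCSK2, rose too (0.89, adjusted p = 0.0051). The granins CHGA (-0.53), CHGB (-0.65) and SCG2 (-0.63) were not called. In the fit of all 7 libraries 5 members fell and 1 rose. STC1, a secreted glycoprotein, stood outside the lists and was among the largest rises. It was at 165 and 161 at 24 h against 921 and 825 at 48 h, a 5.37-fold higher mean with a log2 fold change of 2.41 ± 0.15 (adjusted p = 5.8e-14), and at 792 and 601 in E8 and 188 at 12 h. Its 24 h and 12 h libraries were the low ones.

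**Figure D3:**
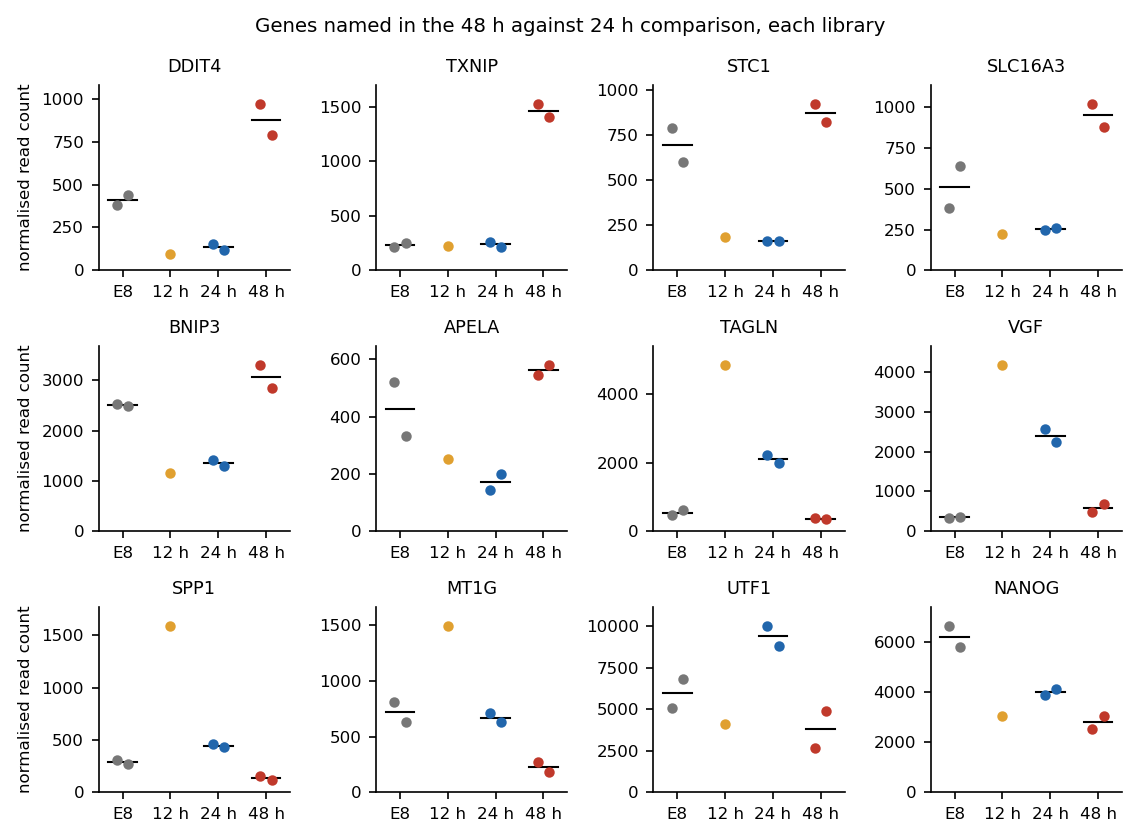
Normalised read count (vertical axis, from 0, scaled per gene) of 12 named genes in every library; points are libraries, grey for E8, yellow for 12 h, blue for 24 h and red for 48 h of XMD892, and bars are group means where a group has 2 libraries. The 48 h libraries lie above both 24 h libraries for DDIT4, TXNIP, STC1, SLC16A3, BNIP3 and APELA, and below them for TAGLN, VGF, SPP1, MT1G, UTF1 and NANOG.

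The genes of the ERK5 cascade itself gave no call. MAPK7 was listed at 748 and 857 at 24 h against 672 and 764 at 48 h (log2 fold change -0.16, adjusted p = 0.54), and MAP2K5 at 366 and 276 at 24 h against 319.6 and 314 at 48 h (-0.0026, adjusted p = 1). These are transcript levels and say nothing of the kinase's activity. With limma 0 of 10 tested members of the cascade and MEF2 list passed; 2 had an unadjusted p under 0.05, and edgeR and DESeq2 on 3 libraries called 0. KLF2 had a mean under 10, and KLF4 had a log2 fold change of -0.71 (adjusted p = 0.11).

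Some of the feedback genes that ERK1 and ERK2 are known to switch on fell. Of 17 tested members of the ERK feedback list 5 fell (29.4%, beside 4.07% of all tested genes) and 12 did not pass the test, with a median of -0.27. DUSP5, a nuclear phosphatase of ERK, was at 1942 and 1488 at 24 h against 862 and 908 at 48 h (-0.94 ± 0.12, adjusted p = 4.2e-06). SPRY4 was at 7027 and 6849 at 24 h against 4535 and 4162 at 48 h (-0.67 ± 0.11, adjusted p = 6.7e-05) and SPRY2 at 1954 and 1862 at 24 h against 1274 and 1208 at 48 h (-0.62 ± 0.11, adjusted p = 5.3e-04); Sprouty proteins damp signalling from FGF receptors. The 48 h libraries lay below the 24 h libraries in all 3, and the groups did not overlap in 49.0% of all tested genes. SPRY1 (-0.40, adjusted p = 0.045) and ETV4 (-0.39, adjusted p = 0.021) were near the threshold, and SPRY1 was not called in the fit of all 7 libraries (0.24) or without the first 24 h library (0.36). ETV4 had an adjusted p of 0.097 with the GC trend removed. DUSP6, a much used marker of ERK activity, was at 6689.7 and 5501 at 24 h against 5052 and 4758 at 48 h (-0.31, adjusted p = 0.093). ETV5 (-0.28), SPRED1 (-0.23) and CCND1 (-0.11) were not called.

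Immediate early genes, which mitogens and stress switch on within minutes, were split. Of 19 tested, 6 fell (31.6%, beside 4.07% of all tested genes) and 1 rose (5.26%, beside 2.23%), with a median of -0.28. JUND was at 3637 and 2785 at 24 h against 1442 and 2120.4 at 48 h (-0.86 ± 0.14, adjusted p = 7.1e-05) and JUN at 691 and 526 at 24 h against 349 and 359 at 48 h (-0.77 ± 0.15, adjusted p = 0.001); both encode parts of the AP-1 factor. FOSL2 (-0.65), IER3 (-0.57) and IER5 (-0.56) fell as well. EGR1, a zinc finger factor downstream of ERK, rose, at 74.98 and 73.9 at 24 h against 125 and 136 at 48 h (0.80 ± 0.23, adjusted p = 0.029), with 45.4 and 47.1 in E8 and 69.8 at 12 h. FOS (-0.02), JUNB (-0.02) and DUSP1 (-0.09) were not called. Without the first 24 h library 1 member was called, JUND. The log2 fold change of JUN was then -0.57 (adjusted p = 0.13), that of EGR1 0.81 (0.13) and that of FOSL2 -0.68 (0.2). EGR1 and FOSL2 were lost without any other single library too, with adjusted p-values up to 0.11 and 0.18. With the GC trend removed the log2 fold change of JUND was -0.52, and FOSL2 had an adjusted p of 0.051.

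MYC, the growth-promoting factor, belongs to the same list and fell, at 3464 and 2943 at 24 h against 2152 and 2087 at 48 h (-0.59 ± 0.11, adjusted p = 7.1e-04; 0.11 without the first 24 h library). MYCN, its neural relative, was at 3610.4 and 3374 at 24 h against 2229.9 and 2549 at 48 h (-0.55 ± 0.11, adjusted p = 0.0014; 0.073 without that library). MXI1, which competes with MYC for the partner MAX, was at 231 and 282 at 24 h against 437 and 449 at 48 h (0.79 ± 0.16, adjusted p = 0.0013; 0.069 without that library). MYC was at 2201 and 2230 in E8 and 2672 at 12 h. MYCN was at 1849 and 2209 in E8 and 2592 at 12 h. For both genes the 24 h libraries were the highest. The other 7 of the 10 tested genes of the MYC family list were not called. The shares of that list were 20% lower and 10% higher, beside 4.07% and 2.23% of all tested genes.

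The core pluripotency genes differed from each other. POU5F1 (log2 fold change 0.12, adjusted p = 0.66) was not called, and its groups overlapped. SOX2 was at 4764 and 4888 at 24 h against 5626 and 5797 at 48 h (0.24, adjusted p = 0.18). NANOG fell, at 3904 and 4138 at 24 h against 2552 and 3046 at 48 h (-0.53 ± 0.11, adjusted p = 0.0023); the reference levels were 6631 and 5818 in E8 and 3059 at 12 h, and the E8 libraries were the highest. In the fit of all 7 libraries the adjusted p of NANOG was 0.087, and without the second 24 h library 0.051. Of 18 tested pluripotency markers 5 fell (27.8%, beside 4.07% of all tested genes) and 13 did not pass the test. The median was -0.17. UTF1, a chromatin factor of pluripotent cells, was at 9967 and 8809 at 24 h against 2695 and 4898 at 48 h (-1.37 ± 0.15, adjusted p = 1.3e-07), and the 48 h libraries differed from each other by a wide margin; robust variance moderation gave an adjusted p of 0.25, and with the GC trend removed the log2 fold change was -0.82. FOXD3 was at 1454 and 1440.4 at 24 h against 738 and 1024 at 48 h (-0.74 ± 0.13, adjusted p = 3.9e-04) and PRDM14 at 1708 and 1871 at 24 h against 1245 and 1048 at 48 h (-0.65 ± 0.12, adjusted p = 5.7e-04); both are transcription factors that hold the pluripotent state. FOXD3 was at 733 and 1009 in E8 and 823 at 12 h, so its 24 h libraries were the high ones. PRDM14 was at 1767 and 1644 in E8 and UTF1 at 5087 and 6818, and their 48 h libraries lay below E8. GAL is the remaining member that fell. In bulk RNA, fewer cells that express a gene and less of its RNA per cell cannot be told apart.

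The lists for the NODAL and FGF pathways, which the factors in E8 feed, held 2 calls each, all lower. NODAL was at 92.7 and 78.6 at 24 h against 77.7 and 83.3 at 48 h (-0.08, adjusted p = 0.9), with 598 and 782 in E8 and 137 at 12 h, so the 12, 24 and 48 h libraries all lay far below E8. LEFTY1 (-0.57, adjusted p = 0.089) and LEFTY2 (-0.69, adjusted p = 0.19), antagonists that NODAL switches on, were not called. SMAD7, an inhibitor of TGFβ receptors, fell, at 1608 and 1632 at 24 h against 898 and 950.1 at 48 h (-0.81 ± 0.12, adjusted p = 1.5e-05), as did PMEPA1, another feedback inhibitor (-0.50). The log2 fold change of PMEPA1 was -0.45 without the first 24 h library, and its adjusted p was 0.17 in the fit of all 7 libraries. SMAD7 and PMEPA1 were the 2 calls among 18 NODAL and SMAD genes (11.1%, beside 4.07% of all tested genes called lower). FGF2 was at 773 and 825 at 24 h against 631 and 872 at 48 h (-0.11, adjusted p = 0.73), and the groups overlapped. Of 11 FGF genes, FGFBP3, a carrier of FGF ligands (-0.70), and FGF19 (-0.46) fell (18.2%). Neither was called without the first 24 h library (0.14 and 0.14).

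BMP target genes moved apart. ID proteins block differentiation factors, and BMP signals are known to switch their genes on. ID3 was at 4329 and 3730.1 at 24 h against 1841 and 2130.3 at 48 h (-1.02 ± 0.11, adjusted p = 1.4e-07) and ID2 at 647 and 825 at 24 h against 1387 and 1539 at 48 h (1.00 ± 0.13, adjusted p = 2.0e-06), so the 2 genes went opposite ways by a like amount. ID1 fell (-0.58, adjusted p = 8.8e-04). BAMBI, a decoy receptor, was at 643 and 588 at 24 h against 363 and 402 at 48 h (-0.69 ± 0.14, adjusted p = 0.0018; 0.073 without the first 24 h library), and the ligand BMP2 was low, at 51.03 and 57.99 at 24 h against 20.5 and 23.8 at 48 h (-1.26 ± 0.35, adjusted p = 0.024; 0.13 without that library). In all, 4 of 15 tested genes of the BMP list fell (26.7%, beside 4.07% of all tested genes) and 1 rose (6.67%, beside 2.23%). Of 19 WNT genes, the secreted antagonist SFRP1 (0.45) and the receptor FZD2 (0.45) rose and the receptor FZD8 fell (-0.67). None of the 3 was called in the fit of all 7 libraries. Without the first 24 h library the log2 fold changes of SFRP1 and FZD2 were 0.38 and 0.38. AXIN2, the standard WNT target, was not called (0.13, adjusted p = 0.63). Of the WNT genes 10.5% rose and 5.26% fell.

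Among lineage markers, most calls were in the anterior neuroectoderm list. Of its 12 tested genes 2 rose (16.7%, beside 2.23% of all tested genes) and 3 fell (25%, beside 4.07%). SOX1 was at 43.7 and 43.96 at 24 h against 79.9 and 111 at 48 h (1.09 ± 0.28, adjusted p = 0.014) and OTX2 at 29.2 and 74.8 at 24 h against 107 and 89.3 at 48 h (1.05 ± 0.31, adjusted p = 0.037); OTX2 stood at 227 and 197 in E8 and 137 at 12 h, and without the first 24 h library its adjusted p was 0.71. OLIG3 (-0.84), SIX3 (-0.55) and SIX6 (-0.47) fell. None of these 5 genes was called in the fit of all 7 libraries, and with the GC trend removed OTX2 had an adjusted p of 0.11 and OLIG3 of 0.051. The trophoblast and amnion list gave 1 call in 5 (20%, beside 4.07% of all tested genes), ANXA3, which fell. Its log2 fold change was -0.97, and -0.86 without the first 24 h library. With limma 0 of 4 primitive streak, 0 of 4 neural crest, 0 of 4 mesoderm and 0 of 7 naive-state genes passed. The counts at an unadjusted p under 0.05 were 0, 1, 0 and 1, and edgeR and DESeq2 on 3 libraries called 0 in each of these lists. COL1A1, described with the matrix genes, was the 1 call among 5 fibroblast and feeder markers, and fell (20%, beside 4.07% of all tested genes). Summed over members, the 5 fibroblast and feeder markers ran from 7735 to 8638 at 24 h and from 7529.5 to 8549 at 48 h, and THY1, with a mean of 5658, made up most of the sum.

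TBX10, a T-box factor that was named whatever its test, fell between the times, at 864 and 1095 at 24 h against 569 and 454 at 48 h (-0.94 ± 0.14, adjusted p = 3.1e-05). It was at 36.7 and 56.2 in E8 and 1656 at 12 h, so both treated groups lay far above E8.

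Matrix genes moved both ways. Of 24 tested collagen, laminin and integrin genes 5 fell (20.8%, beside 4.07% of all tested genes) and 3 rose (12.5%, beside 2.23%). COL1A1 was at 882 and 851 at 24 h against 361 and 324 at 48 h (-1.34 ± 0.14, adjusted p = 2.7e-08) and COL12A1 at 361 and 445 at 24 h against 157 and 149 at 48 h (-1.39 ± 0.17, adjusted p = 1.1e-06); these encode fibrillar and fibril-associated collagens. COL9A3 (-0.62), SPARC (-0.52) and ITGB5 (-0.46) fell as well. 3 genes of the basement membrane and matrix rose. NID1, nidogen, was at 807 and 1216 at 24 h against 1952 and 1519 at 48 h (0.80 ± 0.14, adjusted p = 4.2e-04). FN1, fibronectin, had a log2 fold change of 0.67 and LAMB1 of 0.37. Without the first 24 h library the log2 fold change was 0.50 for NID1 and 0.41 for FN1. In the fit of all 7 libraries the adjusted p of FN1 was 0.068. HMCN1, which encodes the matrix protein hemicentin, rose too, at 223 and 322 at 24 h against 798 and 560.4 at 48 h (1.32 ± 0.17, adjusted p = 2.2e-06). Without the first 24 h library 3 of the 24 genes fell and the 3 rises were lost. With the GC trend removed COL9A3 was at -0.34 (adjusted p = 0.089) and LAMB1 had an adjusted p of 0.056.

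Among 19 hyaluronan and heparan sulfate genes 3 rose (15.8%, beside 2.23% of all tested genes) and 2 fell (10.5%, beside 4.07%). SULF1, which trims sulfate groups that FGF and WNT ligands bind, was at 79.1 and 76.7 at 24 h against 185 and 165 at 48 h (1.15 ± 0.22, adjusted p = 7.2e-04), with 487 and 459 in E8 and 38.6 at 12 h. Its 48 h libraries lay between those at 24 h and those in E8. CD44, the hyaluronan receptor, was low and fell, at 64.6 and 77.6 at 24 h against 29.2 and 13.9 at 48 h (-1.76 ± 0.36, adjusted p = 0.0018). GPC6 (0.56) and GPC4 (0.34), heparan sulfate carriers, rose, and HAS3 fell (-0.43); GPC6 had an adjusted p of 0.27 without the first 24 h library and HAS3 of 0.53 without the second, and GPC4 of 0.078 with the GC trend removed.

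The IGF list held 3 calls in 14 tested genes, all binding proteins, which hold IGF ligands away from their receptor. Of its genes 14.3% fell and 7.14% rose, beside 4.07% and 2.23% of all tested genes. IGFBP6 was at 51.03 and 70.1 at 24 h against 7.56 and 8.93 at 48 h (-2.72 ± 0.42, adjusted p = 6.2e-05), with 4.37 and 7.44 in E8 and 90.2 at 12 h. IGFBP5 was at 17.7 and 37.4 at 24 h against 78.8 and 92.2 at 48 h (1.69 ± 0.33, adjusted p = 0.0013), with 100.4 and 94.2 in E8 and 39.7 at 12 h. IGFBP7 fell, with a log2 fold change of -2.17, and of -1.72 without the first 24 h library. All 3 had few reads. IGF2 (0.36) and IGF1R (0.01) were not called.

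Axon guidance genes encode the receptors and ligands that steer growing nerve fibres. Of 29 tested, 4 fell (13.8%, beside 4.07% of all tested genes) and 1 rose (3.45%, beside 2.23%). NRP2, a receptor for semaphorins and VEGF, was at 1018 and 977 at 24 h against 502 and 443 at 48 h (-1.08 ± 0.13, adjusted p = 7.1e-07). UNC5B, a netrin receptor, was at 3024 and 3262 at 24 h against 2217 and 1886 at 48 h (-0.62 ± 0.11, adjusted p = 4.7e-04). SEMA6B (-0.71) and EPHB4 (-0.37) fell, and ROBO1 rose (0.41). SEMA6B had an adjusted p of 0.066 in the fit of all 7 libraries and a log2 fold change of -0.42 with the GC trend removed. EPHB4 had an adjusted p of 0.12 with the GC trend removed. Without the first 24 h library the log2 fold change of ROBO1 was 0.31, and in the fit of all 7 libraries its adjusted p was 0.21. In the NOTCH list of 19, the target NRARP fell and the ligand JAG1 rose (5.26% each, beside 4.07% and 2.23% of all tested genes). NRARP was at -0.64, with an adjusted p of 0.07 in the fit of all 7 libraries. With the GC trend removed it was at -0.36 (adjusted p = 0.1). JAG1 was at 0.47, with an adjusted p of 0.19 in the fit of all 7 libraries. Without the first 24 h library its log2 fold change was 0.28.

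p53 halts the cell cycle or starts cell death through its target genes. Of 19 tested, 4 fell (21.1%, beside 4.07% of all tested genes) and 15 did not pass the test, with a median of -0.35. CDKN1A, the p21 inhibitor of cyclin-dependent kinases, was at 150 and 174 at 24 h against 58.3 and 63.5 at 48 h (-1.39 ± 0.23, adjusted p = 1.4e-04). PHLDA3, an AKT repressor, was at 297 and 336 at 24 h against 135 and 139 at 48 h (-1.20 ± 0.18, adjusted p = 2.8e-05). BAX (-0.47) and BBC3 (-0.67), which promote cell death, fell too, but had adjusted p-values of 0.36 and 0.22 in the fit of all 7 libraries. Without the first 24 h library the log2 fold change of BAX was -0.45, and without the first 48 h library that of BBC3 was -0.38. The log2 fold change of BBC3 was -0.33 (adjusted p = 0.25) with the GC trend removed. MDM2 (-0.36, adjusted p = 0.096), the p53 regulator and target, was not called. In the list of BCL2 family and caspase genes 4 of 22 fell (BBC3, BAD, BAX and BOK) and 2 rose, the death-promoting BMF (0.62) and PMAIP1 (0.49). The shares were 18.2% lower and 9.09% higher, beside 4.07% and 2.23% of all tested genes. None of those 6 passed in the fit of all 7 libraries. BAD had an adjusted p of 0.57 without the first 48 h library, BMF of 0.079 without the first 24 h library and PMAIP1 of 0.097 without the second. With the GC trend removed the log2 fold change of BAD was -0.41 (adjusted p = 0.27) and that of BOK -0.16 (0.41).

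The cell cycle genes were described in 3 lists, for G1, mitosis and DNA replication. In the G1 list of 15, CDKN1A and the D-type cyclin CCND3 (-0.70 ± 0.12, adjusted p = 2.8e-04) fell, and CDKN1B, the p27 inhibitor, rose (0.46). The log2 fold change of CDKN1B was 0.35 without the second 24 h library. Its adjusted p was 0.21 in the fit of all 7 libraries and 0.075 with the GC trend removed. The shares were 13.3% lower and 6.67% higher, beside 4.07% and 2.23% of all tested genes. CCND3 was at 1269 and 1166 at 24 h against 738 and 761 at 48 h. Of 24 mitosis genes NUSAP1, a spindle protein, rose (0.51). Its log2 fold change was 0.41 without the first 24 h library, and its adjusted p was 0.12 in the fit of all 7 libraries. All 24 had positive log2 fold changes, from 0.02 to 0.51 with a median of 0.23; 23 of them did not pass the test, and mitosis genes are known to vary together. All 24 stayed above 0 under the 3 other scalings, 23 did with the GC trend removed and 22 without the first 24 h library. Their summed level was 64576 and 69693 at 24 h, 79215 and 76929 at 48 h and 89437 and 79609 in E8. Without the second 48 h library 6 of the 24 were called. Of 24 DNA replication genes CDT1 (-0.47) and CDC6 (-0.34), which license origins, fell. Without the first 24 h library their log2 fold changes were -0.52 and -0.29. In the fit of all 7 libraries their adjusted p-values were 0.14 and 0.29. CDT1 was at -0.26 (adjusted p = 0.13) with the GC trend removed. The genes that fell were 8.33% of the replication list, beside 4.07% of all tested genes. NUSAP1 was 4.17% of the mitosis list, beside 2.23%.

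Replication histone genes lack poly(A) tails as a rule, so libraries of poly(A) RNA see them in part. Of 11 tested, HIST1H4H (-0.87) and HIST1H2AC (-0.86) fell and HIST2H2AC rose (1.09). The shares were 18.2% lower and 9.09% higher, beside 4.07% and 2.23% of all tested genes. HIST1H2AC was at 369 and 579 at 24 h against 246 and 263 at 48 h and 115 and 96.7 in E8 and 666 at 12 h. Without the second 24 h library HIST1H4H had an adjusted p of 0.098 and HIST1H2AC of 0.16; without the first, HIST2H2AC had 0.23.

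Genes of the ribosome and of its assembly were called in opposite directions. Of 28 tested ribosomal protein genes 5 rose (17.9%, beside 2.23% of all tested genes) and 23 did not pass the test. The median was 0.18. RPS27 was at 8009 and 9060.5 at 24 h against 13838 and 11099 at 48 h (0.54 ± 0.11, adjusted p = 0.0027) and RPL23 at 10726 and 12478 at 24 h against 18498 and 15131 at 48 h (0.53 ± 0.12, adjusted p = 0.0035). RPS18, RPL15 and RPL27 rose by 0.36 to 0.42 on the log2 scale. Of 22 ribosome biogenesis genes 4 fell (18.2%, beside 4.07% of all tested genes) and 18 did not, with a median of -0.18. NOP16 was at 942 and 939 at 24 h against 568 and 667 at 48 h (-0.61 ± 0.13, adjusted p = 0.0024) and BOP1 at 5376 and 5041 at 24 h against 3792 and 3450.4 at 48 h (-0.53 ± 0.11, adjusted p = 0.0017); both act in the making of the large subunit. MYBBP1A (-0.51) and RRP12 (-0.35) fell as well. The fit of all 7 libraries called 0 genes in either list. Without the first 24 h library 0 ribosomal protein genes and 2 biogenesis genes were called. With the GC trend removed BOP1 was at -0.30 (adjusted p = 0.082), and RPS18, RPL15, RPL27 and RRP12 had adjusted p-values of 0.053, 0.082, 0.062 and 0.097. Ribosomal protein genes have many processed copies in the genome, so how multiply mapped reads were treated could affect them.

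Polyamine synthesis, a pathway driven by MYC, fell in 3 of 11 tested genes (27.3%, beside 4.07% of all tested genes). SRM, spermidine synthase, was at 4344 and 4525 at 24 h against 2497 and 2993 at 48 h (-0.70 ± 0.11, adjusted p = 7.7e-05). ODC1, the first enzyme, was at 8031 and 6526 at 24 h against 5628 and 5563 at 48 h (-0.37, adjusted p = 0.037), with 2757 and 2888 in E8 and 8613 at 12 h. AMD1 had a log2 fold change of -0.38. Without the first 24 h library ODC1 had an adjusted p of 0.64 and AMD1 of 0.35, and with the GC trend removed ODC1 had 0.05 and was not called. Of 23 nuclear genes of oxidative phosphorylation ATP5E (0.52), COX7C (0.51) and NDUFA4 (0.37) rose (13.0%, beside 2.23% of all tested genes). With the GC trend removed NDUFA4 had an adjusted p of 0.055, and the fit of all 7 libraries called 0 of these genes. Of the 13 mitochondrially encoded ones limma called 0; 3 had an unadjusted p under 0.05, edgeR on 3 libraries called 2 and DESeq2 called 0. Their summed level was 766657 and 978060 at 24 h and 972616 and 960573 at 48 h, so the 24 h libraries differed from each other more than the groups did.

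Sterol genes, which SREBP2 switches on when cholesterol is short, lost all their calls without 1 library. Of 25 tested, 5 fell (20%, beside 4.07% of all tested genes), with a median of -0.18. INSIG1 was at 5160 and 2647 at 24 h against 2218 and 2356 at 48 h (-0.69 ± 0.16, adjusted p = 0.0053), so the first 24 h library stood alone and the second was close to the 48 h libraries. MVD was at 5139 and 3362 at 24 h against 2668 and 2644 at 48 h (-0.65 ± 0.13, adjusted p = 0.0015) and CYP51A1 at 490.5 and 353 at 24 h against 191 and 247 at 48 h (-0.93 ± 0.17, adjusted p = 6.5e-04); DHCR7 (-0.38) and LSS (-0.35) fell as well. Without the first 24 h library 0 of the 25 genes were called, and the adjusted p was 0.68 for INSIG1, 0.34 for MVD and 0.075 for CYP51A1. The fit of all 7 libraries called 0 as well, and the unadjusted p was under 0.05 in 7 with limma on the 4 libraries. Robust variance moderation gave INSIG1 an adjusted p of 0.55. FASN was the 1 call among 13 fatty acid synthesis genes (7.69%, beside 4.07% of all tested genes called lower), with a log2 fold change of -0.45. Without the first 24 h library that value was -0.34, and in the fit of all 7 libraries its adjusted p was 0.18. With the GC trend removed FASN was at -0.22 (adjusted p = 0.33), and MVD, DHCR7 and LSS had adjusted p-values of 0.061, 0.13 and 0.1.

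Amino acid transport changed at single genes. SLC7A5, which with SLC3A2 imports large neutral amino acids, was at 13359.7 and 13709 at 24 h against 6645 and 6636 at 48 h, a 2.04-fold lower mean with a log2 fold change of -1.03 ± 0.11 (adjusted p = 3.5e-08). It was at 7532 and 9234 in E8 and 16441 at 12 h, and the groups were tight and apart. SLC7A11, the cystine importer, was at 174 and 102 at 24 h against 55.1 and 66.4 at 48 h (-1.13 ± 0.26, adjusted p = 0.0051), with 439 and 331 in E8 and 192 at 12 h; without the first 24 h library its adjusted p was 0.31. CEBPB fell too (-0.82), and VLDLR, a lipoprotein receptor, rose, at 163 and 133 at 24 h against 386 and 332 at 48 h (1.27 ± 0.18, adjusted p = 8.9e-06). These and DDIT4 were the 5 calls among 24 tested ATF4 genes, 2 higher (8.33%, beside 2.23% of all tested genes) and 3 lower (12.5%, beside 4.07%). ATF4 itself (-0.07), ASNS (0.04) and DDIT3 (-0.03) were not called. Of 18 endoplasmic reticulum stress genes DNAJC3 (-0.58) and XBP1 (-0.38) fell. Without the first 24 h library their log2 fold changes were -0.53 and -0.18. In the fit of all 7 libraries their adjusted p-values were 0.084 and 0.28. HSPA5, the main chaperone, was not called (-0.25, adjusted p = 0.2). DNAJC3 and XBP1 were 11.1% of their list.

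**Figure D4:**
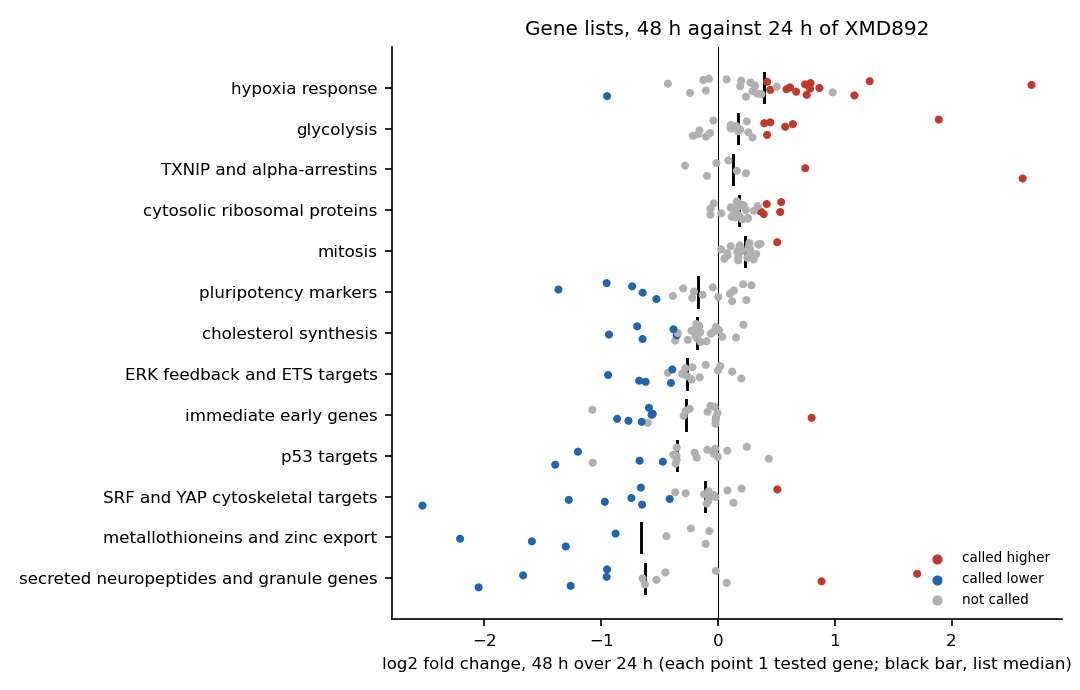
Log2 fold change of 48 h over 24 h (horizontal axis) for the tested members of 13 gene lists; points are genes, red called higher, blue called lower and grey not called, and black bars are list medians. Red points gather in the hypoxia and glycolysis lists (13 of 30 and 6 of 21), blue points in the metallothionein and SRF and YAP lists (4 of 8 and 7 of 20), and all 24 mitosis genes lie right of 0 with 1 called.

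Some lists held no call with limma. These were 16 cytosolic heat shock genes, 20 aminoacyl-tRNA synthetases, 23 proteasome subunits and 9 DNA methylation genes, with 4, 4, 0 and 2 genes at an unadjusted p under 0.05. On 3 libraries edgeR called 1, 0, 0 and 0 of them and DESeq2 called 0 in each. Other lists held 1 to 3 calls, so their shares rest on few genes. Of the lysosome genes 4.17% rose and 8.33% fell, and of the retinoid genes 8.33% fell. Of the MHC class I genes 7.14% rose, and of the HEXIM1 and P-TEFb list 8.33%. Over all tested genes 2.23% rose and 4.07% fell. GABARAPL1, an autophagy gene, rose (0.61 ± 0.11, adjusted p = 6.4e-04) among 24 lysosome genes, while SQSTM1 (-0.55) and ATP6V0C (-0.60) fell. The log2 fold change of SQSTM1 was -0.41 without the first 24 h library, and that of ATP6V0C -0.45 without the second. In the fit of all 7 libraries their adjusted p-values were 0.099 and 0.26. With the GC trend removed ATP6V0C had an adjusted p of 0.16. B2M, the light chain of MHC class I, rose (0.46) among 14 genes of its list. Its log2 fold change was 0.39 without the first 24 h library, and its adjusted p was 0.16 in the fit of all 7 libraries. LARP7, which holds the elongation factor P-TEFb inactive, rose (0.47) among 12 genes, and HEXIM1 (-0.08) was not called. The log2 fold change of LARP7 was 0.41 without the first 24 h library, and its adjusted p was 0.15 in the fit of all 7 libraries. LARP7 overlaps the miR-302 cluster on the opposite strand. RARA, a retinoic acid receptor, fell (-0.60) among 12 retinoid genes. Its log2 fold change was -0.56 without the first 24 h library. Its adjusted p was 0.18 in the fit of all 7 libraries and 0.097 with the GC trend removed.

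The remaining large changes belong to genes outside the lists. MIR210HG rose, at 44.8 and 37.4 at 24 h against 181 and 137 at 48 h (1.92 ± 0.25, adjusted p = 4.2e-06), with 62.9 and 75.2 in E8 and 22.5 at 12 h; it lies at chr11:565660-568457 (GENCODE 29), and its promoter stretch is printed above. PRTG, protogenin, a receptor of the early embryo, was at 112 and 138 at 24 h against 326 and 361 at 48 h (1.45 ± 0.18, adjusted p = 1.3e-06), with 121 and 108 in E8 and 95.5 at 12 h, so the 48 h libraries stood above all others. CRYL1, an enzyme of sugar metabolism, was at 51.03 and 32.7 at 24 h against 95.03 and 142 at 48 h (1.48 ± 0.28, adjusted p = 8.9e-04). The noncoding AC007218.1 was at 321 and 468 at 24 h against 971 and 830.1 at 48 h (1.21 ± 0.15, adjusted p = 1.2e-06), with 1215 and 1014 in E8 and 342 at 12 h. On the lower side, GCNT4, a glycosyltransferase, was at 166 and 99.1 at 24 h against 30.2 and 37.7 at 48 h (-1.89 ± 0.28, adjusted p = 3.6e-05). SLC22A3, an organic cation transporter, was at 123 and 99.1 at 24 h against 39.95 and 39.7 at 48 h (-1.45 ± 0.27, adjusted p = 6.6e-04), with 260.2 and 284 in E8 and 135 at 12 h. TMEM238 was at 160.4 and 167 at 24 h against 45.4 and 74.4 at 48 h (-1.48 ± 0.24, adjusted p = 1.5e-04). CPLX2, complexin, which acts in vesicle release, was at 80.2 and 123 at 24 h against 41.03 and 29.8 at 48 h (-1.48 ± 0.29, adjusted p = 0.0014; 0.066 without the second 24 h library). GPS2, part of a corepressor complex, was at 196 and 234 at 24 h against 38.9 and 149 at 48 h, with 48 h libraries far apart. Its adjusted p of 0.0027 became 0.13 in the fit of all 7 libraries and 0.058 with the GC trend removed. Robust variance moderation gave 0.53. Its log2 fold change of -1.48 became -0.52 without the first 48 h library. EIF5A overlaps GPS2 on the opposite strand.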

How the data were processed

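Poly(A) RNA of H1 cells was read as paired ends on an Illumina NextSeq instrument, per the labels' protocols. The submitters' processing notes name Trimmomatic 0.36, STAR, featureCounts 1.5.3, DESeq2 1.26.0 and hg38; annotation, strand setting and filters are not given in the sources used here. The table the authors deposited gives a signal for each gene symbol, a read count scaled by 1 size factor for each library, as every value is a whole multiple of its library's smallest step within 0.1 (100% of values). The table lists genes with 6 or more reads over the 7 libraries; 2 further columns match no sample and were not used.

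Genes averaging 10 or more in the 4 libraries were fitted with limma 3.58.1 (R 4.3.3) on log2(value + 1) with a trended prior (2 residual degrees of freedom, prior 31.8), and p-values were Benjamini-Hochberg adjusted over 16198 genes. The scripts were tested on simulated data. Symbols were matched to GENCODE 29 (97.4%).

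The comparison, the 52 gene lists (940 entries), the tests and the naming rule were chosen with earlier results of these data known. The rule names the 12 largest called changes each way with non-overlapping groups and a group mean of at least 100, up to 4 called members of each list and 11 set genes (MAPK7, MAP2K5, POU5F1, SOX2, NANOG, NODAL, FGF2, TBX10, VGF, TAGLN and TXNIP); other list members were named after their values were seen. Alternatives were pseudocounts of 0.5 and 5, no filter or one at 50, TMM, same-total and quantile scaling (edgeR 4.0.16), robust moderation, a fit of all 7 libraries, a replicate block, removal of each library's GC trend (loess, span 0.3), leaving out each library, and, added after seeing the data, edgeR and DESeq2 1.42.0 on whole reads of 3 libraries.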

Additional observations from a re-analysis of the deposited data

How the results depend on the processing

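The count of 1021 calls (361 higher, 660 lower) stayed within 1.5 times under both other pseudocounts, both other filters, the 3 scalings (999 to 1056 calls) and robust moderation (1156). Quantile scaling split the calls 405 to 594. A fit of all 7 libraries called 191 genes (54 higher, 137 lower). The replicate block called 673 (209 higher, 464 lower), of which 671 were among the 1021. Replicate numbers showed no pairing: the replicate differences at 24 h and 48 h correlated at -0.08 over genes, and there are only 2 pairs. Removing the GC trend called 646 (271 higher, 375 lower), and with the block 999 (444 and 555). Leaving out 1 library at a time gave 269 to 1468 calls, 90 to 552 higher and 179 to 916 lower, with the fewest without the first 24 h library and the most without the second 48 h library; the lone library is then assumed to vary like the other group. On whole reads without the second 48 h library, edgeR called 1444 genes (601 higher, 843 lower) and DESeq2 289 (80 higher, 209 lower). The planned edgeR and DESeq2 fits of all 4 libraries were not run, because the step of that library lay too near 1 to be accepted as whole reads.

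Of the named genes, those that changed sign under an alternative were not called in the comparison. MAP2K5 turned to 0.0057 with TMM scaling, 0.0041 with the GC trend removed (with and without the block), 0.0029 with edgeR and 0.0024 with DESeq2, and leaving out 1 library took it from -0.2048 to 0.1996. The leave-one-out ranges were -0.0024 to 0.2433 for POU5F1, -0.2013 to 0.0343 for NODAL and -0.3398 to 0.1267 for FGF2. With 2 libraries a group, changes of low genes are poorly measured.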

Other observations

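Several genes with few reads fell. They were chosen after their values were seen, and their means lie under 100. ANXA1, a phospholipid-binding annexin, was at 28.1 and 22.4 at 24 h against 1.08 and 0.992 at 48 h (adjusted p = 0.0013), with 12.2 and 9.92 in E8 and 312 at 12 h; no fold is given, since the 48 h libraries hold 1 read each. COL8A1, a short-chain collagen, was at 70.8 and 77.6 at 24 h against 9.72 and 6.94 at 48 h (-3.03 ± 0.40, adjusted p = 4.4e-06). MYOF, a membrane repair protein, was at 33.3 and 36.5 at 24 h against 7.56 and 2.98 at 48 h (-2.62 ± 0.54, adjusted p = 0.002), and LCP1, an actin bundler, at 41.7 and 38.3 at 24 h against 14.04 and 1.98 at 48 h (-2.61 ± 0.57, adjusted p = 0.0034). In these 4 genes the 12 h library was the highest of the 7.

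A few transcripts outside the lists rose, also chosen after their values were seen. Of 11 tested mitochondrial tRNA genes 3 were called higher, MT-TN, MT-TC and MT-TP (adjusted p = 0.072 for MT-TP with the GC trend removed). Over all tested genes 2.23% were called higher. MT-TC was at 657 and 778 at 24 h against 1176 and 1283 at 48 h (0.78 ± 0.12, adjusted p = 9.5e-05). MT-TN was at 437 and 461 at 24 h against 1365 and 758 at 48 h (1.18 ± 0.16, adjusted p = 1.1e-05), with 48 h libraries far apart and with 1632 and 994 in E8 and 851 at 12 h. The butyrophilin gene BTN2A2 was at 252 and 234 at 24 h against 411 and 338 at 48 h (0.62 ± 0.16, adjusted p = 0.017), with an adjusted p of 0.13 in the fit of all 7 libraries.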
